A study of Oryza sativa with 14 samples.

Results

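The comparison described here sets seedlings of an unstable gamma-irradiated rice mutant against unirradiated seedlings of the same cultivar, Nipponbare. It takes 4 of the 14 arrays of the series, the 2 of the unstable mutant and the 2 of the Nipponbare control, chosen by their sample titles. The mutant is the M1 generation, the first after mutagenesis, of a line irradiated with 100 Gy. After irradiation 98% survived, and the line taken for the arrays was the one whose appearance came nearest to that of the unirradiated plants. Seed for irradiation and seed for the control came from a single self-pollinated panicle. Each array holds RNA from a pool of 6 whole seedlings, 12 days old, kept in Yoshida's medium at 28 °C, at first 2 days in darkness and then 10 days with a photoperiod of 12 h. Neither group was given hygromycin.

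The other 5 groups, also with 2 arrays each, serve below to show where a level lies. They are the unstable transgenic line (Nipponbare, T1, with a BCBF1 gene under the Arabidopsis AtRD29A promoter and an hpt II gene, germinated with 30 mg/L hygromycin B), the stable mutant (Estrela A, a gamma-irradiated semidwarf after more than 10 selfings) with the unirradiated Estrela A control, and the stable transgenic line (Bengal, T3, with a gene for the antibody fragment ScFvT84.66, also germinated with 30 mg/L hygromycin B) with the untransformed Bengal control. No control was given hygromycin. Replicates are separate pools, so the p-values measure the spread between pools and not between independently irradiated lines.

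Gamma rays break DNA strands and damage cells through reactive oxygen. In plants, breaks are repaired by end joining or by recombination, and progress through the cell cycle is slowed while repair goes on. Seedlings of the first generation after irradiation can carry heritable changes and also differ in growth. In rice seedlings a whole-plant sample mixes roots, which express the uptake transporters for nitrate, iron, silicon and phosphate, with leaves, which express the photosynthetic genes.

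The values are log2 expression on the scale of the deposited table, on which 1 unit is a 2-fold difference. A probe set was called when its limma adjusted p was under 0.05 in a two-sided test, adjusted over all 57194 probe sets tested. The array medians lay between 5.83 and 5.89, and a level near or below that range may be background, as no detection calls were used. The mutant replicates correlated across probe sets with r = 0.995 and the control replicates with r = 0.993. Probe sets are not independent replicates, so these are descriptions. The median absolute difference between replicates was 0.13 in the mutant and 0.15 in the control.

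The mutant arrays stood apart from the other Nipponbare arrays in a way that bears on every result below. They correlated with the Nipponbare control at r = 0.971 to 0.978, with the Bengal control at 0.972 to 0.974 and with the Estrela A control at 0.971 to 0.973. The unstable transgenic line correlated with the same Nipponbare control at 0.981 to 0.99. As a check of the cultivar label, 332 probe sets were taken that set the Nipponbare control apart from all 8 Bengal and Estrela A arrays by at least 2 log2 units. The mutant lay at the Nipponbare level in 193 of them (58.1%), at the level of the other cultivars in 102 (30.7%) and between in 37. The unstable transgenic line lay at the Nipponbare level in 277 (83.4%), at the other level in 5 (1.51%) and between in 50.

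When the 4 arrays of the control and the unstable transgenic line had to stand apart together, 252 probe sets were left. The mutant sat at the Nipponbare level in 168 of these (66.7%) and at the level of the other cultivars in 57 (22.6%). It sat less often at the level of 1 other cultivar alone. Of 146 probe sets that set Bengal apart, the mutant was at the Bengal level in 11, and of 229 that set Estrela A apart, it was at the Estrela A level in 13. The 11 were 8 of the 46 probe sets higher in Bengal (17.4%) and 3 of the 100 lower in Bengal (3.0%). The direction mattered. Of the 246 probe sets of the control-based set that were higher in the Nipponbare control, the mutant was at the Nipponbare level in 164 (66.7%) and at the other level in 56 (22.8%). Of the 86 that were lower in the control, it was at the Nipponbare level in 29 (33.7%) and at the other level in 46 (53.5%). In the set of 252, the 50 lower ones divided into 23 and 21. The labelled cultivar was thus met by most of the probe sets that mark Nipponbare by a high level, and not by most of those that mark it by a low one. The cause was not tested.

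**Figure D1:**
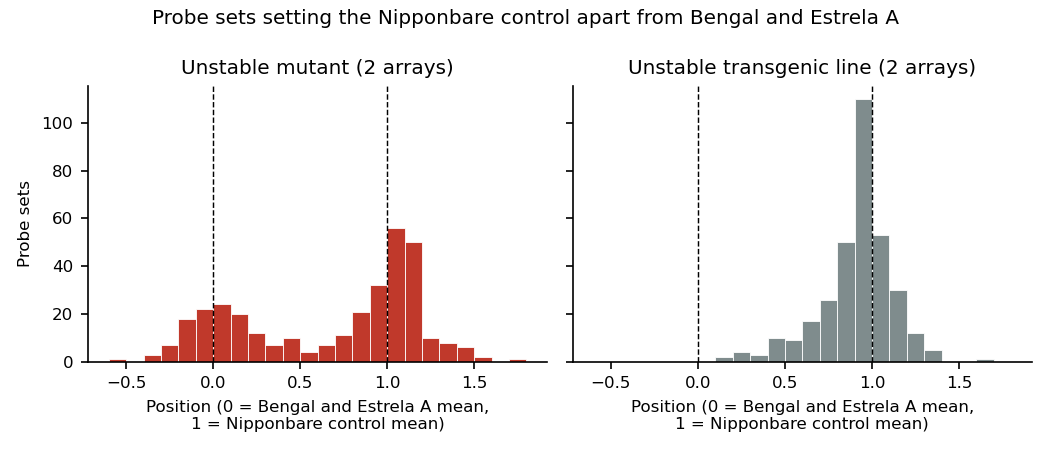
Histograms of the position of the unstable mutant (left) and the unstable transgenic line (right) for the 332 probe sets that set the Nipponbare control apart from Bengal and Estrela A. The x axis is the line's mean between the mean of the 8 other arrays (0) and the control mean (1), with values past the axis drawn in the end bins, and the y axis counts probe sets. The mutant has a group near 0, with 102 probe sets below 0.25, where the transgenic line has 5.

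Across the array, 13085 of 57194 probe sets (22.9%) were called, 7277 higher in the mutant (12.7%) and 5808 lower (10.2%). Of the calls, 2957 were at least 2-fold, 1594 higher and 1363 lower. At an unadjusted p under 0.05 there were 19309. Among the 17905 genes represented on the array, 38% were called, 19.1% higher and 18.9% lower. Among the 2458 genes with an informative name 41.6% were called, 18% higher and 23.6% lower, with a median log2 difference of -0.04, and these are the shares that each gene list below is read against. The number of called probe sets was 8179 without mutant replicate 1 and 7862 when only the 4 arrays of the comparison were fitted. Of the 68 counts of higher and lower members over the 34 lists below, 32 moved by more than 1.5 times in that last fit, while the root markers kept 11 lower.

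The 12 named genes with the largest rise were led by BURP16, a BURP-domain protein of the cell wall. BURP16 read 13.8 and 13.75 in the mutant, against 7.85 and 8.44 in the control. The mutant arrays were both above both control arrays, and the difference was 5.63 (SE 0.37, 49.5-fold, adjusted p = 1.65e-06). BURP16 averaged 9.38 in the unstable transgenic line and between 12.2 and 13.6 in the groups of the other cultivars. Among the 7 groups it was thus low in the Nipponbare control and the transgenic line only. The other 11 were LEA19, APG8D, ELA3, RAB21, RAB16B, COPT2, SAT1, CPDK2, STLP3, CIPK14 and NAC5, with rises between 5.35-fold and 21.9-fold. In 10 of the 12, the Nipponbare control had the lowest mean of the 7 groups.

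The 12 with the largest fall were led by JAZ2, a repressor of jasmonate signalling. JAZ2 read 3.4 and 3.21 in the mutant, against 10.61 and 10.6 in the control, a difference of -7.30 (SE 0.10, 158-fold, adjusted p = 5.21e-12). The mutant was at the bottom of the scale and the control was well above its array median. The same probe set read 10.69 in the unstable transgenic line and between 3.32 and 3.5 in the 4 groups of the other cultivars, so among the 7 groups it was high in the Nipponbare control and the transgenic line only. The other 11 were IRT1, CYP701A8, CPS2, NRT2.2, TIP2-1, CYP71Z7, NRT2.3, GLU15, PT2, KS10 and BBD1, lower by 8.22-fold to 37.4-fold. In 6 of the 12 the control had the highest mean of the 7 groups.

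**Figure D2:**
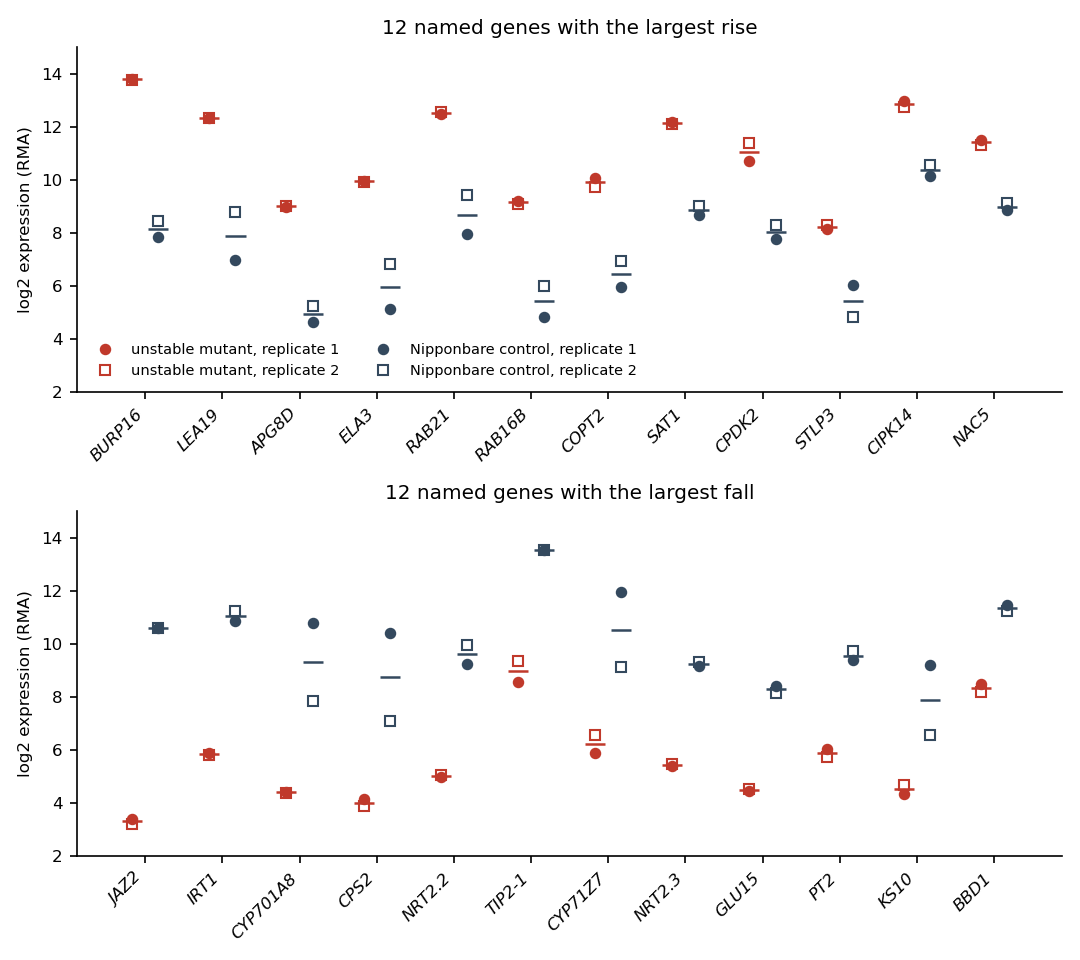
Log2 expression (y axis) of the 12 named genes with the largest rise (top) and the largest fall (bottom) in the unstable mutant (left of each pair) and the Nipponbare control (right of each pair). Circles are replicate 1, squares replicate 2 and bars the mean of 2. The naming rule required groups that do not overlap, and the control replicates lie far apart for CYP701A8 (10.77 and 7.85), CPS2 (10.43 and 7.08) and CYP71Z7 (11.94 and 9.11).

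Many genes of root uptake were lower in the mutant. Of 20 root markers, 11 were called lower (55.0%) and 0 higher, with a median difference of -1.65. With limma, 0 of the 20 were higher at an unadjusted p under 0.05, and 0 without variance moderation. The mean level over the 20 genes was 7.12 and 7.69 in the mutant, against 9.02 and 9.28 in the control. The transgenic line read 9.21 and 9.07, and the 8 arrays of the other cultivars read from 7 to 7.68, so the mutant was level with those and the control with the transgenic line. In whole seedlings, fewer root cells and less of these transcripts in each root cell cannot be told apart. The root markers include IRT1, NRT2.2, NRT2.3 and PT2, which are described next. The list and those genes are therefore not separate evidence. The part of root content in those results was not tested. Of the 20, 9 were not called.

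For iron, IRT1, the main ferrous iron transporter of rice roots, read 5.87 and 5.81 in the mutant, against 10.88 and 11.25 in the control. It was 37.4-fold lower (log2 difference -5.22, SE 0.21, adjusted p = 3.26e-08), and both mutant arrays were at the median of all probe sets. NRAMP5, which takes up manganese and iron, read 8.11 and 8.07 in the mutant, against 10.59 and 10.60 in the control, 5.68-fold lower (adjusted p = 5.38e-07). YSL15, which imports iron chelated by mugineic acids, read 6.84 and 8.8 in the mutant, against 9.56 and 10.19 in the control. The mutant arrays were apart by nearly 2 units and only replicate 1 was far below the control, so the 4.16-fold difference (adjusted p = 0.0136) moved to 2.11-fold without mutant replicate 1 and 8.2-fold without mutant replicate 2. Its call was lost without mutant replicate 1 or control replicate 2.

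The nicotianamine synthases NAS1 and NAS2, which make the iron chelator nicotianamine, were named after their values were seen, because they split the mutant pools most among the root markers. NAS1 read 6.65 and 11.76 in the mutant, against 11.62 and 11.89 in the control. NAS2 read 7.94 and 12.34 in the mutant, against 12.52 and 12.67 in the control. Mutant replicate 2 was close to the control for both and replicate 1 was far below it, and neither gene passed (adjusted p = 0.3 and 0.235). The list of iron, zinc and copper genes as a whole was mixed, with 13 of 61 called higher (21.3%) and 10 lower (16.4%). Without mutant replicate 1, 6 were called lower. Its largest rise was COPT2, a copper transporter, which read 10.05 and 9.73 in the mutant, against 5.94 and 6.92 in the control (11-fold higher, adjusted p = 2.15e-05), with both mutant arrays above all other 12 arrays.

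For nitrogen, 9 of 20 nitrate and ammonium genes were called lower (45.0%) and 1 higher, with a median of -0.28. The higher one was not called without mutant replicate 1 or without control replicate 1. NRT2.2, a high-affinity nitrate transporter, read 4.96 and 5.06 in the mutant, against 9.25 and 9.97 in the control, 24.3-fold lower (adjusted p = 2.17e-06). NRT2.3, of the same family, read 5.41 and 5.47 in the mutant, against 9.16 and 9.32 in the control, 13.9-fold lower (adjusted p = 3.53e-09). For both, the mutant pools lay below the median of all probe sets while the control pools lay far above it. NAR2.2, of the NAR2 family that holds partner proteins of NRT2 transporters, was 3.48-fold lower (adjusted p = 0.00244). The ammonium transporter AMT1-2 was 4.18-fold lower (adjusted p = 0.000629).

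For phosphate, 7 of 23 genes were called lower (30.4%) and 2 higher (8.7%). Without mutant replicate 1 there were 0 higher, and 1 without either control array. PT2, a phosphate transporter, read 6.03 and 5.72 in the mutant, against 9.38 and 9.72 in the control, 12.8-fold lower (adjusted p = 3.27e-07). PHT3 read 4.17 and 4.06 in the mutant, against 5.53 and 6.27 in the control (3.45-fold lower, adjusted p = 0.00456), and reached 8.18 in the transgenic line, so the control was not the highest group. PHO1;2 and PHO1;3, of the family that exports phosphate to the xylem, were 2.66-fold and 2.06-fold lower. For PHO1;2 the probe sets disagreed, since a dimmer one was higher by 0.60 (adjusted p = 0.00123).

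Water channels moved with the root genes in part. Of 25 aquaporins, 9 were called lower (36.0%) and 2 higher (8.0%), with a median of -0.10. TIP2-1, a channel of the vacuolar membrane, read 8.57 and 9.37 in the mutant, against 13.53 and 13.55 in the control. It was 23.8-fold lower (adjusted p = 6.77e-06), below all other 12 arrays, and its second probe set gave -4.62. PIP2;7 and PIP2;5, of the plasma membrane, were 4.11-fold and 2.59-fold lower. TIP3-1, known as a channel of seed vacuoles, went the other way, with 7.46 and 6.59 in the mutant, against 4.87 and 5.06 in the control (4.17-fold higher, adjusted p = 0.000517).

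**Figure D3:**
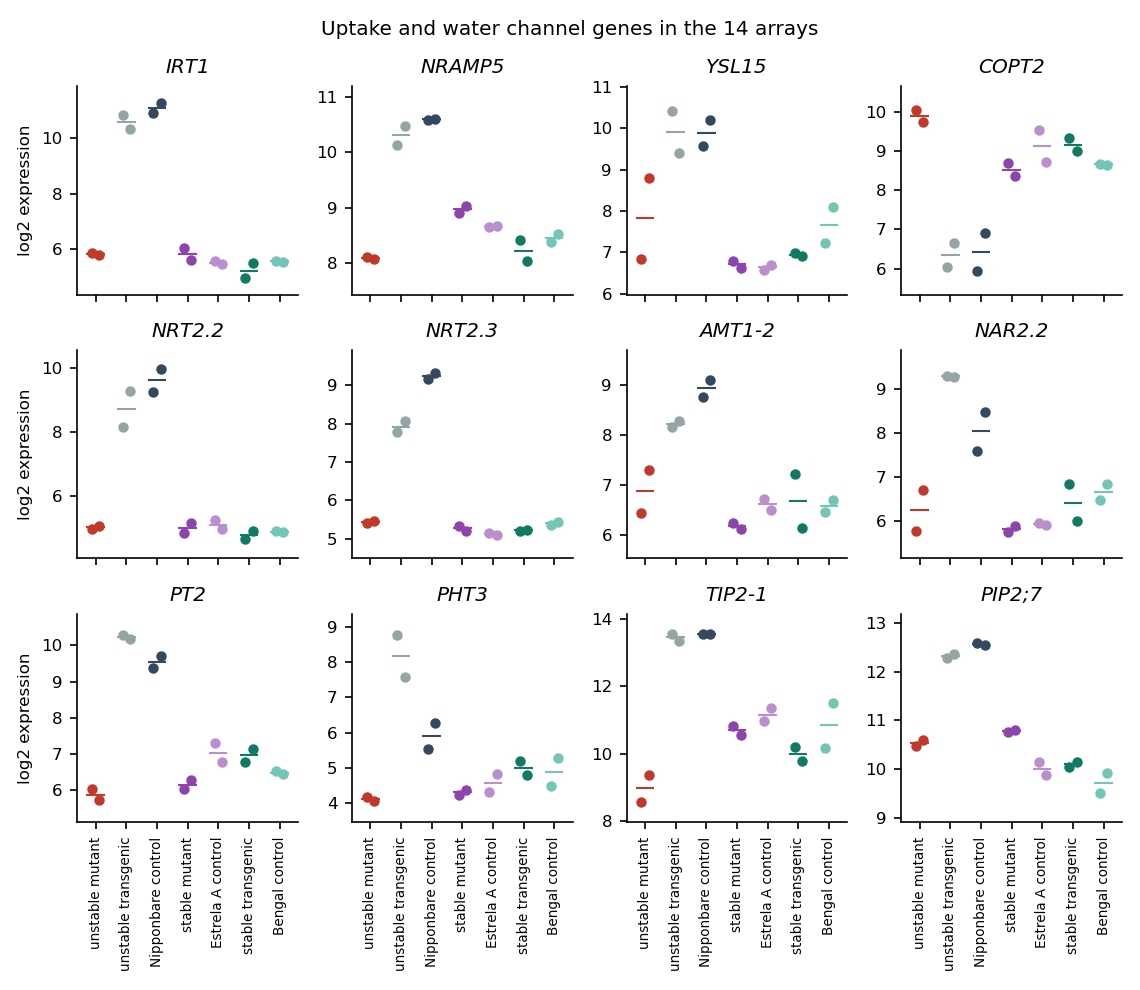
Log2 expression (y axis, a scale of its own per gene) of 12 uptake and water channel genes in all 14 arrays, with groups along the x axis, a point per array and a bar for the mean of 2. IRT1, NRT2.2, NRT2.3 and PT2 were near 5 to 7 in the unstable mutant and in the 4 groups of the other cultivars, and from about 8 to 11 in the unstable transgenic line and the Nipponbare control. COPT2 ran the other way, and the mutant arrays of YSL15 were 6.84 and 8.8.

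Genes known for their response to water deficit and abscisic acid held some of the largest rises. Of 29 members of the cold, drought and abscisic acid list, 9 were called higher (31.0%) and 5 lower (17.2%), with a median of 0.05. LEA19, a late embryogenesis abundant protein, read 12.31 and 12.31 in the mutant, against 6.95 and 8.77 in the control, 21.9-fold higher (adjusted p = 3.7e-05). RAB21, a dehydrin, read 12.46 and 12.56 in the mutant, against 7.96 and 9.4 in the control, 14.2-fold higher (adjusted p = 7.3e-05). The neighbouring dehydrin gene RAB16B read 9.2 and 9.09 in the mutant, against 4.83 and 5.97 in the control, 13.4-fold higher (adjusted p = 0.000192).

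In these 3 genes the mutant lay nearer to the other cultivars than to the Nipponbare control. LEA19 averaged between 11.9 and 12.82, and RAB21 between 12.89 and 13.54, in the stable mutant, the Estrela A control and the Bengal control. RAB16B averaged 9.2 in the Estrela A control and 11.08 in the Bengal control, so the mutant was level with Estrela A and below Bengal. For each gene no group was lower than the Nipponbare control. The unstable transgenic line lay between the control and the mutant, averaging 10.57 for LEA19, 10.65 for RAB21 and 8.04 for RAB16B. RAB16B did not pass between the mutant and the transgenic line (log2 difference 1.10, limma adjusted p = 0.114). The control replicates differed from each other by more than 1 unit, with replicate 1 the lower. The rise of LEA19 was 11.6-fold without control replicate 1 and 41.1-fold without control replicate 2, and that of RAB21 was 8.63-fold and 23.4-fold, with all calls kept.

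NAC5, a stress-related NAC factor, read 11.48 and 11.32 in the mutant, against 8.84 and 9.12 in the control (5.35-fold higher, adjusted p = 1.46e-07). CIPK14, a CBL-interacting protein kinase, read 12.96 and 12.73 in the mutant, against 10.14 and 10.56 in the control (5.64-fold higher, adjusted p = 4.92e-07). SAPK9, a kinase of abscisic acid signalling, fell, with 7.2 and 6.3 in the mutant, against 9.52 and 9.36 in the control (6.45-fold lower, adjusted p = 8.34e-06). Here the mutant was below all other 12 arrays, and the other 5 groups were level with the control. The 56 protein phosphatase 2C genes, some of which restrain abscisic acid signalling, divided evenly, with 12 higher (21.4%) and 12 lower (21.4%). Without mutant replicate 1 or without control replicate 1 there were 7 higher, and without control replicate 2 there were 7 lower. PP2C68 was 2.46-fold higher (adjusted p = 0.00075) and PP2C27 was 2.23-fold lower (adjusted p = 0.00014).

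The calcium-dependent and CBL-interacting kinases, with their partners, gave 12 higher and 13 lower of 78, and a median of -0.08. The lower count was 7 without mutant replicate 1 or control replicate 1 and 8 without mutant replicate 2. CPK9, a calcium-dependent kinase, read 7.76 and 7.8 in the mutant, against 6.67 and 6.75 in the control (2.1-fold higher, adjusted p = 9.14e-05). CBL5, a calcium sensor, was 2.11-fold lower (adjusted p = 0.000208). CML20, a calmodulin-like gene, was 2.64-fold higher (adjusted p = 0.00307). Of 12 DREB and AP2/ERF factors, which switch on cold and drought genes, 2 were higher and 1 lower, and none of these 3 differed by 2-fold. They were DREB2A (1.59-fold higher), TOE1 (1.36-fold higher) and DREB1C (1.7-fold lower). All 3 lost their call when only the 4 arrays of the comparison were fitted, and DREB2A and TOE1 also without control replicate 1 or mutant replicate 1.

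Some diterpenoid defence genes and some jasmonate genes were lower in the mutant. Of 38 jasmonate genes, 9 were called lower (23.7%) and 3 higher (7.89%), with a median of -0.22, which is about the share of named genes called lower. The lipoxygenase LOX1.1 read 6.04 and 5.47 in the mutant, against 8.38 and 8.8 in the control, 7.14-fold lower (adjusted p = 0.000795) and below all other 12 arrays. The chloroplast lipoxygenase CM-LOX2 was 6.11-fold lower (adjusted p = 0.00282), or 3.32-fold without control replicate 1 and 11.2-fold without control replicate 2, and its 2 other probe sets were dim and did not pass. AOS4, an allene oxide synthase of the jasmonate pathway, was 3.02-fold lower (adjusted p = 0.000105).

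Diterpenoid phytoalexins are antimicrobial compounds that rice makes from geranylgeranyl diphosphate through copalyl diphosphate synthases, kaurene synthase-like enzymes and cytochromes P450. Of the 20 genes of this list, 10 were called lower (50.0%) and 1 higher, with a median of -0.91. At the first step, CPS2 read 4.13 and 3.88 in the mutant, against 10.43 and 7.08 in the control, 26.9-fold lower (adjusted p = 0.00155). At the second, KS10 read 4.34 and 4.68 in the mutant, against 9.21 and 6.55 in the control, 10.3-fold lower (adjusted p = 0.00164). Of the cytochromes, CYP701A8 read 4.40 and 4.39 in the mutant, against 10.77 and 7.85 in the control, 30.2-fold lower (adjusted p = 0.00147), and CYP71Z7 was 19.7-fold lower (adjusted p = 0.00656).

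In each of these 4 genes control replicate 1 was the highest array of the pair by more than 2 units, and both mutant arrays were below both control arrays. When only the 4 arrays of the comparison were fitted, the limma adjusted p was larger. It was 0.0311 for CPS2, 0.0445 for KS10, 0.019 for CYP701A8 and 0.0276 for CYP71Z7. Without control replicate 1 the differences were 8.43-fold for CPS2, 4.11-fold for KS10, 11-fold for CYP701A8 and 7.39-fold for CYP71Z7, and without control replicate 2 they were 85.9-fold, 26-fold, 83-fold and 52.5-fold. CYP71Z7 lost its call without control replicate 1 and without mutant replicate 1. The list count was 4 lower without control replicate 1, 4 without mutant replicate 1 and 6 without mutant replicate 2, and 6 when only the 4 arrays were fitted.

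Other defence genes went both ways, with 6 of 40 higher (15%) and 8 lower (20.0%). These counts were also unsteady, with 3 higher and 1 lower without control replicate 1, and 4, 1 and 2 lower without control replicate 2, mutant replicate 2 and mutant replicate 1. The chitinase Chib3H-a read 7.12 and 7.68 in the mutant, against 5.44 and 5.05 in the control (4.45-fold higher, adjusted p = 6.05e-05). PBZ1, a pathogenesis-related protein, read 9.41 and 9.57 in the mutant, against 13.14 and 11.24 in the control (6.5-fold lower, adjusted p = 0.0389). It moved to 3.36-fold and lost its call without control replicate 1, was 12.6-fold without control replicate 2, and lost the call without either mutant array. The chitinases Cht1 and Cht4 were 2.23-fold and 2.16-fold higher, and both lost their call without mutant replicate 1 or control replicate 1, Cht1 also without mutant replicate 2. BBD1, a nuclease of basal defence, read 8.47 and 8.17 in the mutant, against 11.48 and 11.24 in the control, 8.22-fold lower (adjusted p = 1.12e-07). It was low only in the mutant, at 10.4 or above in the means of the other groups.

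Cell wall genes were called lower far more often than higher. Of 74, 38 were called lower (51.4%) and 5 higher (6.76%), with a median of -0.48. GLU15, an endo-1,4-beta-glucanase, read 4.46 and 4.54 in the mutant, against 8.43 and 8.16 in the control, 13.9-fold lower (adjusted p = 6.75e-09). The glucanases GLU6 and GLU5 were 6.63-fold and 6.57-fold lower (adjusted p = 0.000136 and 6.05e-05). The expansin EXP3, of the proteins that loosen walls during growth, read 5.32 and 5.62 in the mutant, against 7.95 and 8.6 in the control, 6.99-fold lower (adjusted p = 8.92e-05). The groups did not overlap for any of the 4. The count of lower members was 24 without mutant replicate 1 and 24 without control replicate 2.

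Cellulose synthase genes of the list, named after their values were seen, were called lower for both growing and thickening walls. CESA1, CESA3, CESA5, CESA6 and CESA8, of primary walls, gave differences of -1.18, -0.50, -1.26, -1.96 and -0.88. CESA4, CESA7 and CESA9, of secondary walls, gave -1.12, -1 and -0.64. CESA2 was called higher, at 0.71. Of 28 phenylpropanoid and lignin genes, 13 were called lower (46.4%) and 3 higher (10.7%), with a median of -0.50. 4CL1, which activates cinnamic acids, read 7.26 and 7.41 in the mutant, against 9.22 and 9.11 in the control, 3.56-fold lower (adjusted p = 1.89e-06). The laccase LAC4 was 3.18-fold lower (adjusted p = 0.000194). LAC19, another laccase, split the control at 9.07 and 5.86, so its 5.74-fold fall (adjusted p = 0.0325) moved to 1.89-fold without control replicate 1 and 17.4-fold without control replicate 2, and its call was lost without control replicate 1 or either mutant array. LAC20 was 3.26-fold lower, and lost its call without mutant replicate 1 or control replicate 1.

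Genes of cell division and DNA replication were called lower more often than higher. Of 65, 27 were called lower (41.5%) and 9 higher (13.8%), with a median of -0.24. CYCP2-1, a P-type cyclin, read 6.37 and 6.74 in the mutant, against 9.14 and 9.48 in the control, 6.75-fold lower (adjusted p = 1.37e-06). MCM5 and MCM6, of the replicative helicase, were each 2.67-fold lower, with MCM5 at 6.9 and 7.04 in the mutant, against 8.38 and 8.39 in the control. All 6 subunits of that helicase, MCM2 to MCM7, were called lower, by 0.96 to 1.42 log2 units (the other 4 were named after their values were seen), while MCM9, a relative outside the helicase, was called higher at 0.82. MCM8 did not pass (-0.04, adjusted p = 0.915). The lower count was 16 without mutant replicate 1 and 17 without control replicate 2, and the higher count 3 without mutant replicate 1.

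Of 26 genes of DNA repair and damage response, 7 were called lower (26.9%) and 4 higher (15.4%), with a median of 0.03. Those are close to the shares of all named genes. The lower members with the largest differences also serve replication. RPA32A, a subunit of the protein that coats single-stranded DNA, read 7.96 and 8.26 in the mutant, against 9.45 and 9.55 in the control, 2.62-fold lower (adjusted p = 0.000134). RPA70B, another subunit, was 2.37-fold lower (adjusted p = 0.00076). PCNA, the sliding clamp of the polymerases, was 1.54-fold lower (adjusted p = 0.0214) and lost its call with any 1 of the 4 arrays left out.

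KU80, which holds broken ends for joining, was 1.54-fold lower on its brightest probe set (adjusted p = 0.00042), but 2 dimmer probe sets were called higher, at 0.50 and 0.98, and another gave -0.09, so its direction was not settled. The 4 higher members, ADPRT-3, RPA32B, FEN1B and OsSPO11B, named after their values were seen, differed by 0.31 to 0.53. Without mutant replicate 1 there were 3 lower and 2 higher, and without control replicate 2 there were 3 lower. Of 29 DNA methylation and chromatin genes, 4 were lower (13.8%) and 3 higher (10.3%). The cytosine methyltransferases CMT3 and MET1-2 were 2.11-fold and 2.02-fold lower (adjusted p = 0.00208 and 0.000859), and the centromere histone CenH3 was 1.77-fold lower (adjusted p = 0.00128). AGO1D, an argonaute, was 1.59-fold lower and lost its call without control replicate 1 or mutant replicate 2. The 3 higher calls of that list fell to 0 without mutant replicate 1 or control replicate 2 and to 1 without control replicate 1.

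Ribosomal protein genes differed by small amounts, mostly downward. Of 24, 13 were called lower (54.2%) and 0 higher, with a median of -0.34. With limma, 1 was higher at an unadjusted p under 0.05, and 1 was called higher without variance moderation and 1 with a trended robust prior. RPS26 read 11.39 and 11.52 in the mutant, against 12.27 and 12.23 in the control, 1.74-fold lower (adjusted p = 0.000911). RPL11 was 1.49-fold lower (adjusted p = 0.000866), RPL39C 1.43-fold lower (adjusted p = 0.00139) and RPS4 1.42-fold lower (adjusted p = 0.0105). The lower count was 8 without mutant replicate 1, where RPS4 lost its call, and 6 when only the 4 arrays were fitted. Of 11 translation factors, 1 was called in each direction: eIF-4A-1, an RNA helicase, was 1.47-fold higher (adjusted p = 0.00186), and PAB1, a poly(A) binding protein, was 1.26-fold lower (adjusted p = 0.0252) and lost its call with any 1 array left out.

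**Figure D4:**
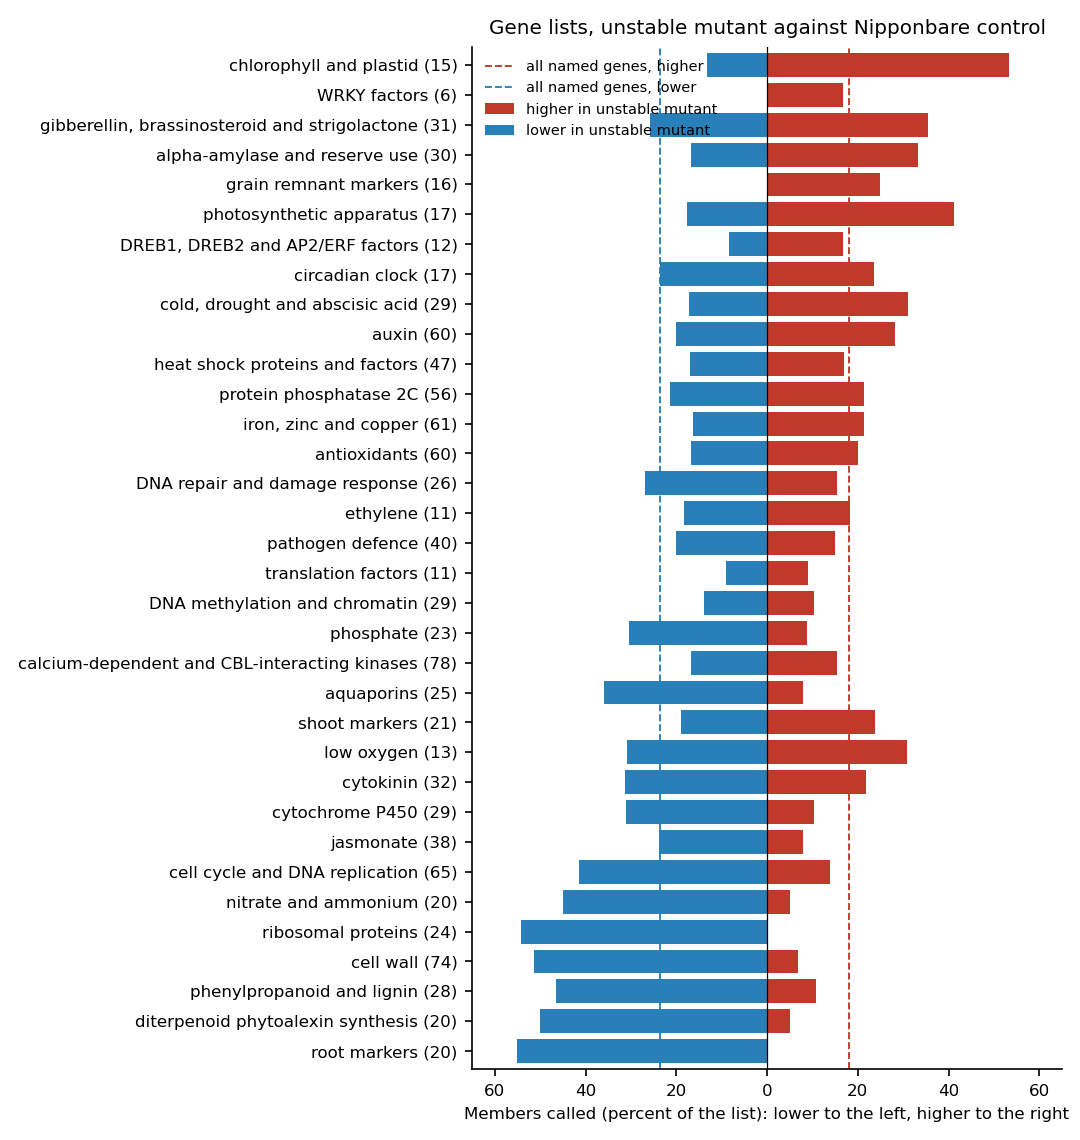
Share of each of the 34 gene lists (number of members in brackets) called higher (bars to the right) and lower (bars to the left) in the unstable mutant against the Nipponbare control, ordered by median difference. The x axis is percent of the list, and the dashed lines are the shares over all named genes, 18% higher and 23.6% lower. Root markers, ribosomal proteins, cell wall and diterpenoid genes have 50.0% or more of their members called lower, and the chlorophyll list has 53.3% called higher.

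Genes of chlorophyll and the photosynthetic apparatus were higher more often than lower. Of 15 chlorophyll and plastid genes, 8 were called higher (53.3%) and 2 lower (13.3%), with a median of 0.37. GLK1, a factor that switches on chloroplast genes, read 11.75 and 11.8 in the mutant, against 10.71 and 10.72 in the control, 2.08-fold higher (adjusted p = 2.39e-05). RCCR1, an enzyme of chlorophyll breakdown, was 2.35-fold higher (adjusted p = 0.00016), and PORA, an enzyme of its synthesis, 1.82-fold higher (adjusted p = 0.00634). The rises thus took in an enzyme of synthesis and one of breakdown. The guanylate kinase mGmk was 1.87-fold lower (adjusted p = 0.000535). The higher count was 4 without mutant replicate 1 or control replicate 2 and 5 without mutant replicate 2, and the lower count 1 without mutant replicate 1 or either control array.

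Of 17 genes of the photosynthetic apparatus, 7 were called higher (41.2%) and 3 lower (17.6%), with a median of 0.12. CPDK2 and PPDKB are pyruvate orthophosphate dikinases, enzymes that the list took in by name, and not photosystem subunits. CPDK2 read 10.7 and 11.36 in the mutant, against 7.75 and 8.27 in the control, 8.11-fold higher (adjusted p = 0.000197). PPDKB, of the same enzyme family, was 2.7-fold higher (adjusted p = 9.26e-06). PSAG, a subunit of photosystem I, was 2.62-fold higher (adjusted p = 3.66e-06), though its dimmer probe set gave -0.13 (adjusted p = 0.522). A ferredoxin-NADP reductase of leaves, LFNR1, fell, with 10.94 and 10.95 in the mutant, against 11.98 and 11.95 in the control (2.03-fold lower, adjusted p = 7.08e-05). The lower count was 1 without mutant replicate 1 or either control array.

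The shoot markers as a list did not shift with these. Of 21, 5 were called higher (23.8%) and 4 lower (19.0%), with a median of -0.13, and the mean level over the list was 10.49 and 10.47 in the mutant, against 10.42 and 10.42 in the control. Without mutant replicate 1 there were 3 higher and 2 lower, without control replicate 2 there were 3 and 2, and without control replicate 1 there was 1 lower. Of 16 grain remnant markers, 4 were called higher (25%) and 0 lower, with 0 lower in limma at an unadjusted p under 0.05 and 0 without variance moderation. Their mean level was 6.75 and 6.81 in the mutant, against 6.56 and 6.63 in the control. The 4 were BZIP52 (1.75-fold higher), AGPS2 (1.54-fold), GLUA-2 (1.45-fold) and Q-enzyme (1.22-fold), and all but AGPS2 lost their call without mutant replicate 1 or control replicate 1. The dimmer probe set of GLUA-2 gave -0.21 and did not pass (adjusted p = 0.222).

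Circadian clock genes included a sharp rise in the morning gene CCA1. CCA1 read 12.43 and 12.30 in the mutant, against 10.06 and 10.04 in the control, 4.98-fold higher (adjusted p = 1.73e-08). The evening gene PRR1 read 9.36 and 8.9 in the mutant, against 10.51 and 10.49 in the control, 2.58-fold lower (adjusted p = 2.59e-05). The mutant lay beyond all other 12 arrays for both genes, in opposite directions. CCA1 also had a dim probe set, at 4.51 in the mutant and 4.77 in the control, that did not pass (adjusted p = 0.157). Of the 17 genes in the clock list, 4 were higher (23.5%) and 4 lower (23.5%), with 1 lower when only the 4 arrays of the comparison were fitted. The flowering regulators Hd1 and Hd18 were 1.97-fold and 1.77-fold higher.

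Hormone genes moved in both directions within each list. Of 60 auxin genes, 17 were called higher (28.3%) and 12 lower (20.0%). The higher count was 9 without mutant replicate 1 and 11 without control replicate 1. IAA12, a repressor of auxin response, read 7.03 and 7.19 in the mutant, against 9.36 and 9.68 in the control, 5.31-fold lower (adjusted p = 3.17e-06). ARF16, an auxin response factor, was 2.57-fold lower (adjusted p = 1.34e-05), and SAUR39, a small auxin-induced gene, 2.87-fold higher (adjusted p = 0.00145). PIN2, an auxin exporter of roots in Arabidopsis, was 2.71-fold lower (adjusted p = 0.028) and lost its call with any 1 array left out.

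In the cytokinin list, 7 of 32 were called higher (21.9%) and 10 lower (31.2%). The response regulators RR9 and RR1, which are induced by cytokinin, were 4.39-fold and 3.85-fold lower (adjusted p = 1.03e-05 and 1.3e-05). RR9 read 6.64 and 6.91 in the mutant, against 8.87 and 8.95 in the control. CKX11, which degrades cytokinin, read 11.81 and 11.58 in the mutant, against 10.05 and 10.06 in the control (3.12-fold higher, adjusted p = 1.42e-05), and LOGL5, of the family that activates cytokinin, was 2.91-fold higher (adjusted p = 2.85e-05). A degrading and an activating enzyme thus rose together while both regulators fell.

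Of 31 gibberellin, brassinosteroid and strigolactone genes, 11 were called higher (35.5%) and 8 lower (25.8%), and 5 lower without mutant replicate 1 or control replicate 1. KAO, a cytochrome of gibberellin synthesis, read 9.1 and 8.82 in the mutant, against 6.82 and 6.96 in the control, 4.2-fold higher (adjusted p = 2.15e-06) and above all other 12 arrays. CPS1, which makes the gibberellin precursor ent-copalyl diphosphate, was 2.72-fold lower (adjusted p = 0.00338). ILI6, a helix-loop-helix protein, was 3.88-fold lower (adjusted p = 6.38e-05). Of 11 ethylene genes, 2 were called in each direction by less than 2-fold except EIL1B, a signalling factor that was 2.07-fold lower (adjusted p = 0.00296). The other 3 were ETR3, an ethylene receptor (1.37-fold lower), ACO1, which makes ethylene (1.31-fold higher), and EIL1A (1.28-fold higher), and each lost its call in 2 or more of the fits without 1 array. The higher count was 0 without control replicate 2 and 1 in the other such fits, and the lower count 1 in all but the fit without control replicate 1.

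Heat shock genes divided evenly, with 8 of 47 higher (17%) and 8 lower (17%). Without mutant replicate 1 there were 5 higher and 1 lower, and 5 lower without control replicate 1 or mutant replicate 2. The members with the largest differences were higher. HSP16.9A, a small heat shock protein, read 8.72 and 8.79 in the mutant, against 6.83 and 7.28 in the control, 3.25-fold higher (adjusted p = 2.81e-05). The heat shock factor HSF05 was 3.23-fold higher (adjusted p = 2.37e-05) and HSP17.9A was 2.73-fold higher (adjusted p = 4.22e-05). HSF24 was 2.03-fold higher on its brightest probe set (adjusted p = 0.000185), while its 2 dimmer ones gave -0.12 and 0.18 and did not pass.

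Of 60 antioxidant genes, 12 were called higher (20.0%) and 10 lower (16.7%). There were 7 higher without mutant replicate 1, and 5 lower without control replicate 1 and 6 without mutant replicate 1 or control replicate 2. PRX74, a secreted peroxidase, read 8.45 and 8.42 in the mutant, against 10.99 and 11.18 in the control, 6.28-fold lower (adjusted p = 5.68e-06). The glutathione transferases gst2 and GST1 were 2.03-fold and 1.96-fold higher (adjusted p = 3.53e-05 and 0.00532). GRXS5, a glutaredoxin, was 1.86-fold higher (adjusted p = 0.00376). Among 6 WRKY factors, 1 was called higher, WRKY51 at 2.06-fold (adjusted p = 0.00241), and 2 without control replicate 1, with 0 lower in limma, 0 lower at an unadjusted p under 0.05 and 0 without variance moderation.

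Of 30 genes of reserve use, 10 were called higher (33.3%) and 5 lower (16.7%). Without control replicate 1 there were 5 higher and 1 lower, and 3 lower without either mutant array. The alpha-amylase AMY1.5 read 7.74 and 7.97 in the mutant, against 6.78 and 7.13 in the control, 1.87-fold higher (adjusted p = 0.0012). MYBS3, which represses amylase under sugar, was 2.04-fold higher (adjusted p = 0.000168), but its dimmer probe set gave 0.27 and did not pass (adjusted p = 0.0696). AMY1.4 read 5.94 and 7.43 in the mutant, against 4.16 and 5.51 in the control (3.61-fold, adjusted p = 0.0429), a difference between 2.15-fold and 6.04-fold over the fits without 1 array, and its call was lost without control replicate 1 or mutant replicate 2. AMY1.3 was 2.21-fold higher (adjusted p = 0.0437) and lost its call with any 1 array left out, and its dimmer probe set gave -0.16 and did not pass.

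Of 13 low-oxygen genes, 4 were called higher (30.8%) and 4 lower (30.8%). Without control replicate 2 there were 2 of each, and without control replicate 1 or mutant replicate 2 there was 1 higher. The haemoglobin gene NSHB2 read 9.81 and 11.57 in the mutant, against 8.15 and 8.76 in the control (4.71-fold higher, adjusted p = 0.0154). Its relative NSHB1 read 9.21 and 11.2 in the mutant, against 7.9 and 8.33 in the control (4.26-fold higher, adjusted p = 0.0297). Both rested on mutant replicate 2. Without it they were 2.56-fold and 2.14-fold, without mutant replicate 1 they were 8.66-fold and 8.49-fold, and NSHB1 lost its call in all fits but the one without mutant replicate 1, NSHB2 without mutant replicate 2 or control replicate 1. The other probe sets of NSHB1 did not pass. Adh2, an alcohol dehydrogenase, was 2.68-fold lower (adjusted p = 0.00215).

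The remaining largest named rises have less settled roles. APG8D, of the ATG8 family that marks autophagy membranes, read 8.98 and 8.99 in the mutant, against 4.61 and 5.22 in the control (16.8-fold higher, adjusted p = 3.52e-06). SAT1 read 12.17 and 12.08 in the mutant, against 8.65 and 9.02 in the control (9.78-fold higher, adjusted p = 3.01e-07), and a dimmer probe set of it gave 1.04. ELA3 was 15.8-fold higher (adjusted p = 6.77e-05), and 8.78-fold without control replicate 1 and 28.5-fold without control replicate 2. STLP3 was 6.99-fold higher (adjusted p = 4.32e-05), and 10.6-fold without control replicate 1 and 4.59-fold without control replicate 2. In the cytochrome P450 list, which shares members with the lists above, 9 of 29 were lower (31.0%) and 3 higher (10.3%).

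Some genes without a name, and some probe sets assigned to none, differed more than the named ones. The most raised probe set without a gene read 10.48 and 10.39 in the mutant, against 4.72 and 3.89 in the control (70-fold higher, adjusted p = 3.1e-08). It averaged 10.4 in the Bengal control and from 4.23 to 4.38 in the unstable transgenic line, the stable mutant and the Estrela A control, so the mutant was at the level of Bengal there. LOC4352467 read 11.06 and 10.54 in the mutant, against 4.94 and 5.37 in the control (50-fold higher, adjusted p = 5.96e-08), with 11.36 in the Bengal control and 5.93 in the Estrela A control. LOC4334644 was 48.8-fold higher (adjusted p = 1.11e-06) and a second probe set without a gene was 57.3-fold higher (adjusted p = 3.05e-05), and these 2 were high in both other cultivars.

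On the lower side, a probe set without a gene read 5.01 and 5.95 in the mutant, against 12.89 and 12.98 in the control (175-fold lower, adjusted p = 5.32e-05). LOC4336614 was 94.4-fold lower (adjusted p = 3.46e-05). LOC4348069 read 4.79 and 4.9 in the mutant, against 10.76 and 11.05 in the control (66.7-fold lower, adjusted p = 1.36e-07), and was below all other 12 arrays. LOC4329797 read 4.59 and 8.08 in the mutant, against 12.25 and 12.42 in the control. Its mutant arrays were apart by more than 3 units, and the 64-fold fall (adjusted p = 0.000303) was 19.1-fold without mutant replicate 1 and 215-fold without mutant replicate 2.

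The 17905 genes were put in the order of the reference gene table to see whether called genes lie side by side. Runs of 3 or more neighbours on the array called in the same direction numbered 121 higher (408 genes, the longest of 7) and 129 lower (409 genes, the longest of 5). With a difference of at least 2-fold required, 6 runs were higher (18 genes) and 7 lower (22 genes). These are counts with no test. Of the genes put in order, 19.1% were called higher and 18.9% lower, and 694 and 868 by at least 2-fold. With such shares some runs are to be found in any order of the genes. One run held LOC4350994, LOC4350996 and LOC4350998, higher by 4.18, 4.92 and 3.74. LOC4350996 read 9.01 and 8.69 in the mutant, against 3.91 and 3.94 in the control, with 8.86 in the Bengal control and 3.47 in the Estrela A control. All 3 were at the Bengal level in the mutant and low in Nipponbare and Estrela A.

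In another run of higher genes the mutant was above all other groups. LOC4350667 read 8.52 and 8.6 in the mutant, against 4.75 and 4.85 in the control, a difference of 3.76 (adjusted p = 3.53e-09), and averaged between 4.56 and 4.80 in the other 5 groups. Its neighbours LOC4350665 and LOC4350668 were higher by 1.66 and 2.90. LOC4350665 averaged between 10.26 and 10.59 in the other 5 groups. LOC4350668 varied among those groups, from 4.12 in the transgenic line to 6.78 in the stable mutant. Of the lower runs with at least 2-fold differences, the longest had 4 members, LOC4344047, LOC4344049, LOC4344051 and LOC4344052, with differences of -3.08, -2.08, -3.62 and -1.34. A run of MAS, DTS2 and CYP99A2, genes of the momilactone cluster of diterpenoid synthesis, gave -1.05, -1.93 and -2.09. CYP99A2 read 5.88 and 5.67 in the mutant, against 8.98 and 6.75 in the control (4.26-fold lower, adjusted p = 0.028), moved to 1.97-fold without control replicate 1 and 9.22-fold without control replicate 2, and lost its call in 3 of the 4 fits without 1 array. The germin genes GER2, GER1 and GER6 gave -1.52, -1.46 and -1.42.

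The place of the control among all groups was counted over called genes. A gene called higher must have a low control, so these shares describe and do not test. Of the 3414 genes called higher in the mutant, the control had the lowest mean of the 7 groups in 1341 (39.3%, against 17.7% of all genes). In 1974 (57.8%, against 15% of all genes) the 4 arrays of the control and the transgenic line lay below all other arrays of the series. The mutant lay above all other 12 arrays in 753 (22.1%, against 5.5% of all genes). Of the 3384 called lower, the control was the highest group in 1166 (34.5%, against 12.3% of all genes). The control and the transgenic line lay above all other arrays in 1703 (50.3%, against 11.8%), and the mutant lay below all other 12 in 1196 (35.3%, against 9.57%).

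**Figure D5:**
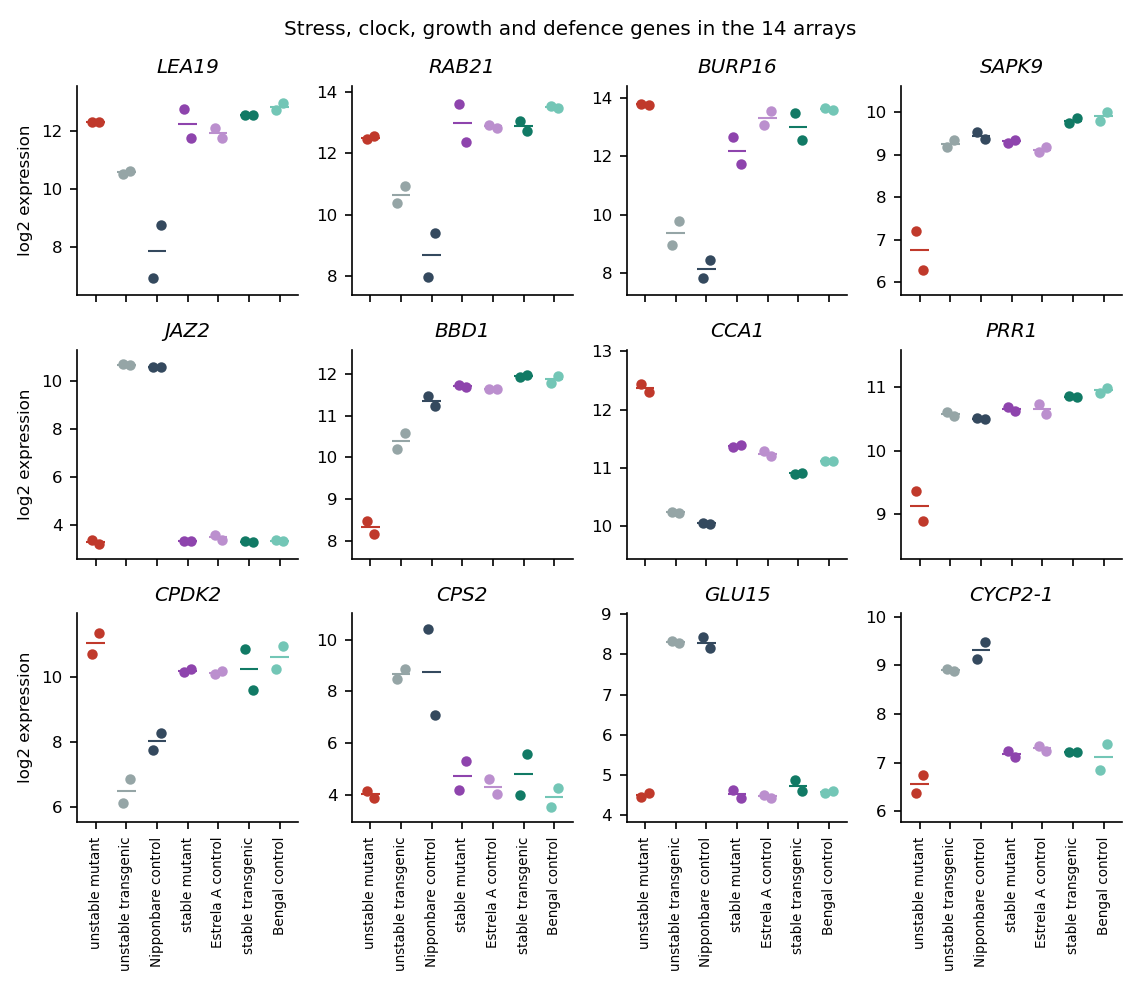
Log2 expression (y axis, a scale of its own per gene) of 12 stress, clock, growth and defence genes in all 14 arrays, with groups along the x axis, a point per array and a bar for the mean of 2. JAZ2, GLU15 and CPS2 place the unstable mutant with the 4 groups of the other cultivars, away from the transgenic line and the Nipponbare control. For LEA19 the mutant (12.31 and 12.31) was also with those groups. There the transgenic line (10.52 and 10.62) lay between the mutant and the control (6.95 and 8.77). SAPK9, BBD1, CCA1 and PRR1 place the mutant apart from all other groups.

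To ask where the mutant differed from the other unstable Nipponbare line, it was compared with the unstable transgenic line directly. The control cancels in that contrast, but hygromycin and the transgene were present only in the transgenic line and cannot be told apart from the rest of the difference. Of 57194 probe sets, 16789 were called (29.4%), 8979 higher in the mutant (15.7%) and 7810 lower (13.7%). The excess of higher calls was not stable, with 7844 higher and 8864 lower after cyclic loess, 2025 higher and 2673 lower when a 2-fold difference was required, and 5902 higher and 6198 lower without shared probe sets. Of the named genes 55.7% were called, 21.2% higher and 34.5% lower. Of 20 root markers, 11 were lower and 0 higher. Cell wall genes gave 51 of 74 lower and 5 higher, and jasmonate genes 26 of 38 lower and 2 higher, with a median of -1.17. The median level of the jasmonate list was 10.11 in the transgenic line, the highest of the groups. It was 9.2 and 8.76 in the control and 8.6 and 8.5 in the mutant. Against the control, 9 of the 38 were called lower.

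The largest named falls against the transgenic line after JAZ2 were DREB1G (-5.03), TPP1 (-4.84), CYP701A8 (-4.84) and JAZ13 (-4.72). DREB1G, a cold-response factor, read 4.34 and 4.61 in the mutant and averaged 9.5 in the transgenic line, against 4.14 and 4.8 in the control, and did not differ from the control beyond the spread (adjusted p = 0.999). TPP1, a trehalose phosphate phosphatase, read 6.48 and 6.73 in the mutant and averaged 11.45 in the transgenic line, and JAZ13 read 5.95 and 5.74 in the mutant and averaged 10.56 in the transgenic line. For these 3 genes the transgenic line was the group that stood apart. The largest named rises were CPDK2 (4.55), BURP16 (4.40), NSHB2 (3.81), COPT2 (3.54) and APG8D (3.44).

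The difference between the unstable mutant and its control was also set against that between the stable mutant and the Estrela A control. The stable mutant differed from the Estrela A control in 75 of 57194 probe sets (0.131%), 39 higher (0.0682%) and 36 lower (0.0629%). The difference between both effects was called in 5826 probe sets (10.2%), 3610 with a larger value in the unstable mutant (6.31%) and 2216 with a smaller one (3.87%). The number was 3300 without unstable mutant replicate 1, 2920 without Estrela A control replicate 1, 3326 without stable mutant replicate 2 and 3608 without stable mutant replicate 1. Of named genes 18.9% were called, 9.8% with a larger and 9.11% with a smaller value. Of 20 root markers, 11 had a smaller value and 0 a larger one, and of 74 cell wall genes 20 had a smaller value and 1 a larger one. This contrast reuses the arrays of the unstable mutant and the Nipponbare control, so these counts are not separate evidence. The median root marker level was already 6.22 in the Estrela A control, against 6.24 and 6.93 in the unstable mutant. The mutants also differ in cultivar and in generation (M1 against more than 10 selfings). Those cannot be told apart from the rest of the difference.

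The named genes with the largest positive difference of effects were BURP16 (6.74), LEA19 (4.12), APG8D (4.09), COPT2 (4.06) and RAB21 (3.72). Those with the largest negative difference were JAZ2 (-7.14), CYP701A8 (-5.56), IRT1 (-5.54), CPS2 (-5.18) and CYP71Z7 (-4.88). JAZ2 averaged 3.34 in the stable mutant and 3.5 in its control, both at the level of the unstable mutant, so its difference of effects came from the Nipponbare side alone. Of these 10, CYP71Z7, CPS2 and CYP701A8 lost their call with a trended robust prior, without variance moderation, and in the fits without stable mutant replicate 2 or Estrela A control replicate 2, CPS2 and CYP71Z7 also without unstable mutant replicate 1, and CYP71Z7 also without control replicate 1 or unstable mutant replicate 2.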

How the data were processed

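The authors deposited log2 expression values made from Affymetrix GeneChip Rice Genome Arrays with Robust Multichip Average (RMA) in the Partek Genomics Suite software, as stated per the labels and the submitters' processing notes. That step corrects background, brings all chips to 1 distribution and summarises each probe set by median polish, so a shift of all genes would be removed. No version of either is stated in the labels. Deposited values were taken unchanged.

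Of 57381 probe sets, 187 control probe sets were left out. Gene names came from the array annotation and a RefSeq gene table (assembly ASM3414082v1): 22436 probe sets had 1 gene, 95 several and 34663 none. Each of 17905 genes was represented by the probe set that was brightest on average, and 2458 had an informative name. Shared probe sets (suffixes _s_at, _x_at, _a_at) can read related genes.

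The test was limma 3.58.1 (R 4.3.3), with 1 mean per group over 14 arrays (7 residual and 4.57 prior degrees of freedom) and Benjamini-Hochberg adjustment. The number of arrays limits the precision. On simulated data with 57194 probe sets for the comparison with the control, 7 of 50 changes of 0.5 log2, 42 of 50 of 1 log2 and 50 of 50 of 2 log2 were recovered, with 4 false calls. The simulation changed only 50 probe sets at each size, where 22.9% of all probe sets were called in the data. The adjustment was therefore stricter there, and its recovery and false calls do not carry over to the data. Titles with "(1)" were taken as replicate 1. Text names the 12 largest named rises and falls among called genes with groups apart and the higher mean at or above 5.86, up to 4 called members per list, 4 unnamed genes or probe sets each way, and 5 each way in the other contrasts. The 34 lists were made from symbols and synonyms, with 90 false matches left out. The comparison, lists and naming rule were chosen with earlier results of these data known. The alternatives were other variance models, fewer arrays, filters on dim or shared probe sets, cyclic loess, a fold threshold, a replicate block, each array left out, and, added after the data had been seen, removal of cultivar-marking probe sets. Promoter sequences were not analysed here.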

Additional observations from a re-analysis of the deposited data

Results flagged for a closer look

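The unstable mutant and the unstable transgenic line differed from each other by a direct test in 16789 probe sets. Among named genes, the mutant was lower for JAZ2 (-7.38), DREB1G (-5.03), CYP701A8 (-4.84), TPP1 (-4.84) and JAZ13 (-4.72), in log2 units. It was higher for CPDK2 (4.55), BURP16 (4.4), NSHB2 (3.81), COPT2 (3.54) and APG8D (3.44). Both mutant arrays lay on 1 side of both transgenic arrays for each of these 10 genes.

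The effect in the unstable mutant differed from that in the stable mutant, by an interaction test, in 5826 probe sets. Cultivar and generation differ between the mutants and cannot be told apart from the rest of this difference. The named genes with the largest differences of effects were JAZ2 (-7.14), CYP701A8 (-5.56), IRT1 (-5.54), CPS2 (-5.18) and CYP71Z7 (-4.88) on the lower side. On the higher side they were BURP16 (6.74), LEA19 (4.12), APG8D (4.09), COPT2 (4.06) and RAB21 (3.72).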

How the results depend on the processing

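The 13085 probe sets called in the unstable mutant against the Nipponbare control became 7862 when only the 4 arrays of the comparison were fitted and 2957 when a 2-fold difference was required. With 1 array left out they ranged from 8179 (without mutant replicate 1) to 13209. Against the unstable transgenic line, 16789 became 4698 with the 2-fold requirement and ranged from 12738 to 14209 with 1 array left out. The difference from the stable mutant effect, 5826, became 2487 with the 2-fold requirement and ranged from 2920 (without Estrela A control replicate 1) to 7436 (without Nipponbare control replicate 2). The other alternatives kept these 3 counts within 1.5 times: for the control comparison, 9000 with 6 Nipponbare arrays, 11250 without variance moderation, 13465 with a trended robust prior, 13300 of 31382 without dim probe sets, 9339 of 45818 without shared ones, 13057 after cyclic loess and 12911 of 56942 without cultivar-marking ones. The share of calls that were higher was 55.6%, and 52.1% after cyclic loess. Against the transgenic line it was 53.5%, and 46.9% after cyclic loess, 43.1% with the 2-fold requirement and 48.8% without shared probe sets. The differences between replicates correlated at 0.04 between mutant and control and at -0.10 between mutant and transgenic line. Such correlations cannot show whether arrays with the same replicate number were handled together. With a replicate block the counts were 12559, 16359 and 5343. With it PBZ1 and AMY1.4 lost their call against the control, and CYP71Z7 in the difference of effects. Of the 131 named genes called against the control, 25 lost their call with some array left out, 22 under some other alternative with no fold requirement, and 0 changed direction. Of the 68 list counts, 56 moved by over 1.5 times with the 2-fold requirement, 32 with the 4 arrays alone, 23 with 6 Nipponbare arrays, 20 without shared probe sets, 16 without variance moderation, and 4 or fewer under each of the trended robust prior, the dim filter, cyclic loess, the cultivar-marking filter and the block, and with 1 array left out 82 of 272 did. The median of 3 lists (DNA repair, antioxidants and the circadian clock) changed sign after cyclic loess, none of them above 0.06 in size. A group left with 1 array borrows its spread from the rest, and signal over background was not tested.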
